A study of Rattus norvegicus with 18 samples.

Results

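The genes described here carry glucose and its products through the cell: the glucose and monocarboxylate transporters, the enzymes of glycolysis, the lactate dehydrogenases, and the proteins that admit pyruvate to the mitochondrion and to the pyruvate dehydrogenase complex. They were taken by gene symbol from a list of 33 genes, not by a cut on their measured values. The list was, however, chosen with earlier results of these data known. Of these 33 genes, 31 had a probe set of their own among the 14218 genes of the array, and 29 were bright enough to be tested among 10934 tested genes. Messenger RNA came from dissociated rat hippocampal neurons, kept in culture for 10 days and transduced on day 3 with lentivirus carrying shRNAs, which are short hairpin RNAs that lower their target transcripts. The control arm received control shRNAs and the RNAi arm received shRNAs against MEF2A and MEF2D, a pair of activity-regulated transcription factors. All cultures were then given AP5, an NMDA receptor blocker, and TTX, a sodium channel blocker, for 1 h, so every group, the 0 h groups included, was silenced before 55 mM KCl depolarized the cells for 0, 1 or 6 h. Each of the 6 groups had 3 Affymetrix arrays that the labels call biological replicates without naming the cultures, so the p-values measure the spread between these arrays.

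Glycolysis splits glucose into pyruvate in the cytosol. Phosphofructokinase is its main control point, and the PFKFB enzymes set the amount of a sugar phosphate that activates it. Lactate dehydrogenase interconverts pyruvate and lactate, the monocarboxylate transporters carry both across the plasma membrane, and the MPC1 and MPC2 proteins together form the carrier that takes pyruvate into mitochondria. There the pyruvate dehydrogenase complex makes acetyl-CoA unless one of the PDK kinases phosphorylates and inactivates it. In brain, GLUT3 (Slc2a3) and MCT2 (Slc16a7) are known as the neuronal transporters, whereas GLUT1 (Slc2a1), MCT1 (Slc16a1) and MCT4 (Slc16a3) are better known from glia and blood vessels.

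The targeted transcripts were lower in the RNAi arm at every time. The Mef2a signal was 32.8%, 26.5% and 27.6% of the control arm at 0, 1 and 6 h, and Mef2d was at 69.5%, 74.7% and 67.5%. Mef2c, which the shRNAs were not labelled to target, was at 88.6%, 76.6% and 81.1%. Fos, an immediate early gene, rose 19.7-fold at 1 h in the control arm. Array medians lay between 240 and 248, and the log2 signals of arrays within a group correlated at 0.994 to 0.998 across probe sets. Neuronal markers were well detected, with summed signals of 68548 to 81415 over 12 genes in single arrays. The cultures also held astrocyte transcripts (summed signal 43740 to 63819 over 11 genes), and 10 of these 11 genes passed the brightness filter. Of the oligodendrocyte lineage 6 of 9 markers passed (summed signal 10214 to 19253; not Mog, Mag and Olig2), of microglia 7 of 10 (1690 to 2046; not Cx3cr1, Ptprc and Tyrobp) and of endothelium and fibroblasts 7 of 9 (2081 to 4279; not Pecam1 and Flt1). In such bulk samples fewer cells of a type and less RNA per cell cannot be told apart.

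**Figure D1:**
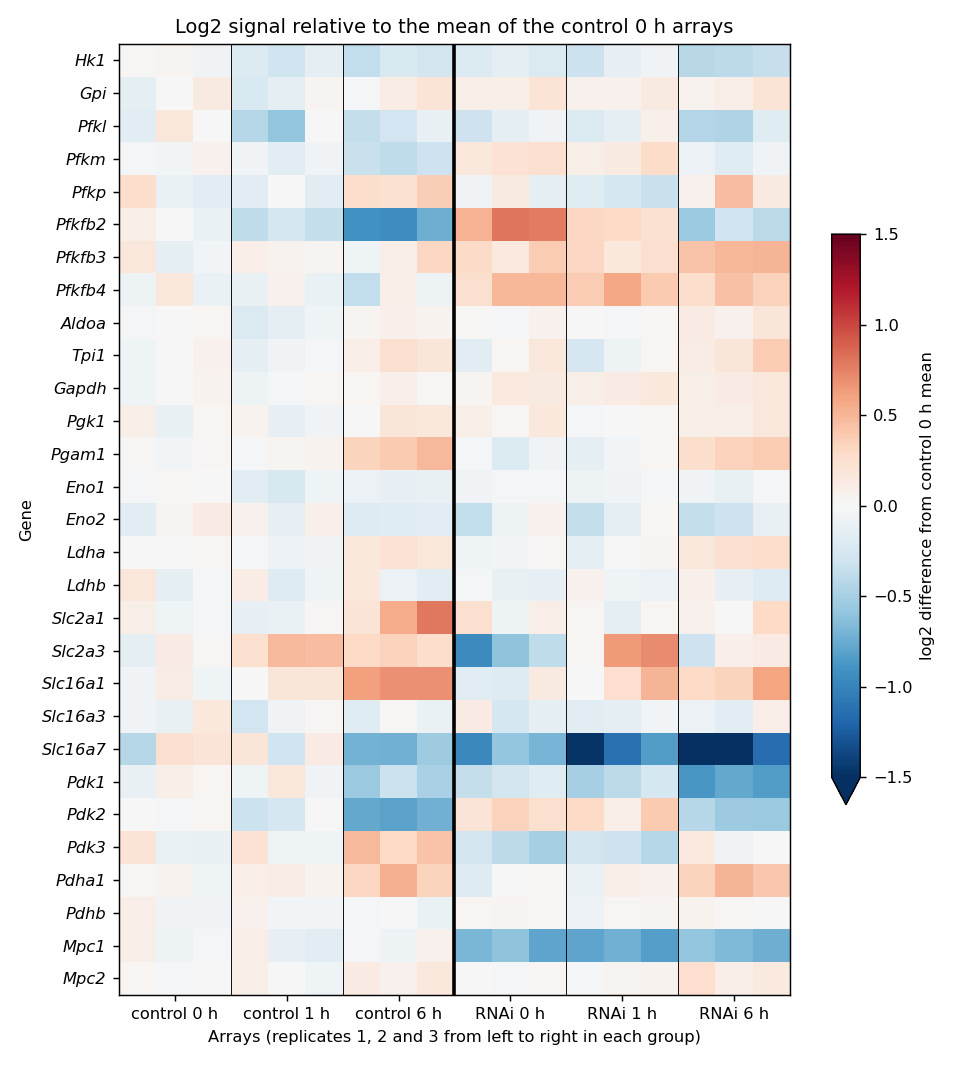
Each row is a tested gene and each column an array, in the order of the 6 groups; colour gives the log2 signal minus the mean of the control arrays at 0 h. Pfkfb2, Pdk2, Pdk1 and Slc16a7 turn blue at 6 h in the control arm, Slc16a1, Pgam1 and Slc2a1 turn red, and Mpc1 is blue in all 9 RNAi arrays.

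After 1 h of KCl in the control arm, no gene of the list was called, that is, none had an adjusted p under 0.05 (limma, Benjamini-Hochberg over all genes tested). In this comparison 2.70% of all tested genes were called. At an unadjusted p under 0.05, 7 of the 29 passed, as did 1288 of the 10934 genes tested. Among them the neuronal glucose transporter Slc2a3 read 2158, 2575 and 2391 at 0 h and 2790, 3329 and 3271 at 1 h. The 3 arrays at 1 h all lay above those at 0 h, by 0.40 on the log2 scale (SE 0.17, limma adjusted p = 0.341). Pfkfb2, whose product makes and removes the activator of phosphofructokinase, read 468, 440 and 411 at 0 h and 338, 370 and 344 at 1 h. These arrays did not overlap either, with a log2 difference of -0.33 (SE 0.09, limma adjusted p = 0.0601). With the replicate number as a block both genes were called, at limma adjusted p = 0.0291 for Pfkfb2 and 0.0358 for Slc2a3, and over all genes 5.50% were. Over 23 alternatives the adjusted p was 0.0291 to 0.299 for Pfkfb2 and 0.0358 to 0.549 for Slc2a3. Pfkfb2 was also called without RNAi 0 h replicate 1 (limma adjusted p = 0.0297) or without RNAi 6 h replicate 1 (0.0486), arrays that enter this comparison through the shared estimate of spread. The other genes that passed without adjustment were Hk1 (-0.22), Pfkl (-0.34), Aldoa (-0.14), Eno1 (-0.16) and Pdk2 (-0.19), all lower at 1 h. Txnip and Arrdc4, arrestin-family genes known to follow glucose supply and to restrain its uptake, changed at 1 h by -2.27 and -0.61 on the log2 scale (limma adjusted p = 2.26e-05 and 0.0176).

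After 6 h of KCl in the control arm 12 of the 29 genes (41.4%) were called, 6 higher and 6 lower. Over all tested genes 41.6% were called, 16.1% higher and 25.5% lower, so the list's share was near the background. Within it, members of the monocarboxylate transporter and PDK kinase families were called in opposite directions, while Pfkfb2 was the only PFKFB gene called. For each of these 12 called genes the 3 arrays at 6 h did not overlap the 3 at 0 h. The call itself makes this likely, and the share over all tested genes was not counted, so it is no separate support. Of 13 neuronal markers Nefl rose (0.37) and Tubb3 fell (-0.37), and of 10 astrocyte markers Glul rose (0.43) and Gfap fell (-0.27). Their part in the changes of the listed genes was not tested.

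Slc16a1, the lactate and pyruvate carrier MCT1, read 2051, 2291 and 2028 at 0 h, 2125, 2408 and 2414 at 1 h and 3245, 3416 and 3399 at 6 h. It rose 1.58-fold between 0 and 6 h (log2 0.66, SE 0.12, limma adjusted p = 0.000305), with the 6 h arrays above all others of the arm. Slc16a7, the high-affinity neuronal carrier MCT2, read 390, 619 and 602 at 0 h and 320, 320 and 362 at 6 h. It fell to 63.5% (log2 -0.66, SE 0.22, limma adjusted p = 0.0253), and its lowest 0 h array lay close to the 6 h group. That call was lost without control 0 h replicate 2 (0.105) or 3 (0.0963), without control 6 h replicate 1 (0.0657) or 2 (0.0696) and with no brightness filter (0.0541), and its adjusted p ranged from 0.00342 to 0.105 over 23 alternatives. Slc2a1, the widely expressed glucose transporter GLUT1, read 1160, 1048 and 1083 at 0 h and 1252, 1613 and 1889 at 6 h. The rise was 1.43-fold (log2 0.51, SE 0.13, limma adjusted p = 0.00362), and the 6 h arrays were the most widely spread of the arm's groups for this gene. Endothelium is also known for GLUT1, and its tight-junction gene Cldn5 rose by 1.23 on the log2 scale in the same comparison, as did Kdr (0.31), 2 of 7 tested endothelial and fibroblast markers, while the summed signal of that list was 3385 to 4169 at 0 h and 3764 to 4118 at 6 h. The part of these cells in the Slc2a1 rise was not tested. Slc2a3 read 2916, 3004 and 2840 at 6 h, above its 3 arrays at 0 h, with a log2 difference of 0.30 (SE 0.17, limma adjusted p = 0.164), and was called with the replicate block (0.0238).

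**Figure D2:**
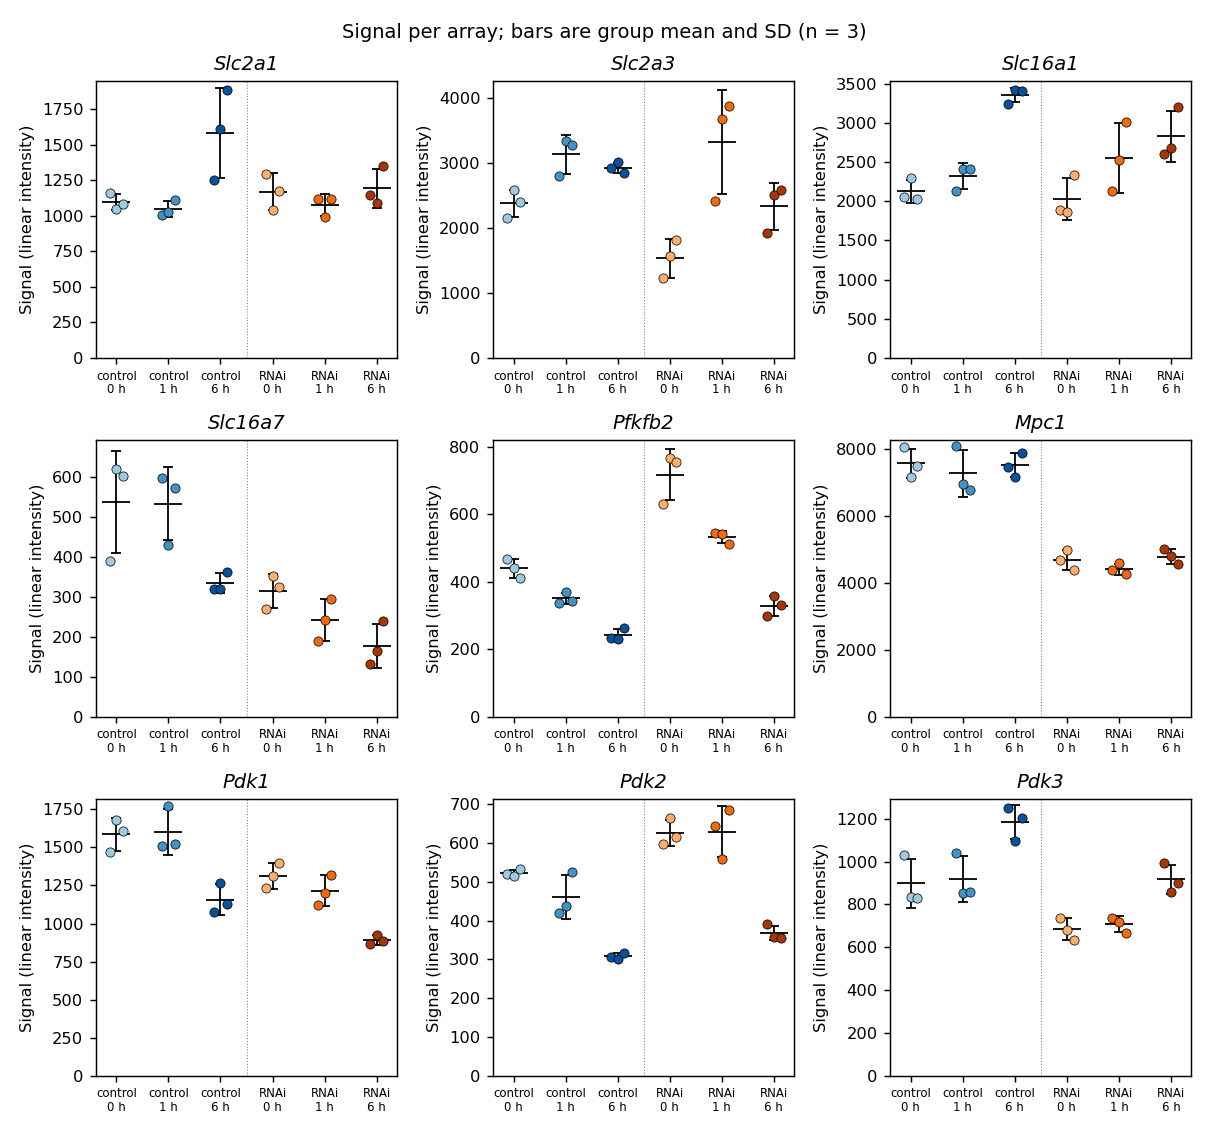
Signal (linear intensity) of 9 genes in each array by arm and hours of KCl; points are single arrays and lines with bars are group means and SD of 3 arrays. Slc16a1 and Pdk3 are highest at 6 h in both arms, Slc16a7, Pfkfb2, Pdk1 and Pdk2 are lowest there, and Mpc1 differs between the arms at every time.

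Of the glycolytic enzymes Pgam1 and Ldha rose, and Hk1 and Pfkm fell, as did the regulatory enzyme Pfkfb2. Pgam1, the mutase of the lower part of the pathway, read 11531, 11098 and 11496 at 0 h and 14333, 14896 and 15902 at 6 h, a 1.32-fold rise (log2 0.40, SE 0.06, limma adjusted p = 9.33e-05). Ldha, the lactate dehydrogenase subunit usually tied to lactate formation, rose 1.13-fold (log2 0.18, SE 0.05, limma adjusted p = 0.0125). Without control 6 h replicate 2 its adjusted p was 0.0532, the highest of its alternatives (0.00336 to 0.0532). Hk1, the main brain hexokinase, read 3074, 3132 and 2943 at 0 h and 2358, 2597 and 2523 at 6 h, a fall to 81.7% (log2 -0.29, SE 0.07, limma adjusted p = 0.00267). Pfkm, the muscle-type phosphofructokinase that brain also makes, fell to 79.0% (log2 -0.34, SE 0.06, limma adjusted p = 0.00025), from 2607, 2556 and 2745 to 2095, 2030 and 2122. Pfkfb2 had the largest fall of the list, to 55.1% (log2 -0.86, SE 0.09, limma adjusted p = 1.17e-06), with 234, 229 and 263 at 6 h against 411 to 468 at 0 h. Pfkfb3 and Pfkfb4 differed by 0.11 and -0.12 and were not called. The chosen probe set of Pfkfb2 stood alone, since its other bright probe sets differed by 0.06 and -0.02 in this comparison. With the mean over all probe sets of a gene the Hk1 call was lost (log2 -0.11, limma adjusted p = 0.203, the highest of 0.000819 to 0.203 over its alternatives). With the replicate block Pfkl (0.0364), Pfkp (0.0396) and Tpi1 (0.0217) were called as well.

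Transcripts of the PDK kinases changed in different directions by isoform. Pdk2 read 521, 516 and 533 at 0 h, 419, 438 and 526 at 1 h and 307, 300 and 317 at 6 h. It fell to 58.8% between 0 and 6 h (log2 -0.76, SE 0.09, limma adjusted p = 3.49e-06). Pdk1 fell to 72.9%, from 1469, 1678 and 1609 to 1073, 1268 and 1128 (log2 -0.46, SE 0.09, limma adjusted p = 0.000451). Pdk3, a kinase of the same family, instead rose 1.32-fold, from 1032, 833 and 829 to 1249, 1095 and 1205 (log2 0.40, SE 0.10, limma adjusted p = 0.00397). Pdha1, the catalytic subunit that these kinases phosphorylate, read 5268, 5375 and 4955 at 0 h and 6456, 7530 and 6563 at 6 h, a 1.32-fold rise (log2 0.40, SE 0.08, limma adjusted p = 0.000668). Pdhb, the other subunit of that enzyme component, differed by -0.04 (limma adjusted p = 0.625) and was not called. A second probe set of Pdk3 and of Pdha1 gave the same direction (log2 0.37 and 0.51, limma adjusted p = 0.0347 and 0.00632). For Pdk1 the second probe set was at 0.31 (limma adjusted p = 0.128), opposite to the first, and the mean over both lost the call (log2 -0.07, adjusted p = 0.469, over alternatives from 2.28e-05 to 0.469). The direction for Pdk1 therefore rests on the brighter probe set. The pyruvate carrier genes Mpc1 and Mpc2 differed by -0.01 and 0.12 and were not called.

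The promoters of the 6 genes that rose are shown with matches to a binding core of the hypoxia-inducible factor. The part of this factor in the changes of the listed genes was not tested. ACGTG is 1 form of that factor's binding core. Only this form was searched for, and it is called the core below. Each sequence holds the 250 bases before the RefSeq start of transcription in GRCr8, read 5′ to 3′ on the gene's strand, and capitals mark every ACGTG found on either strand, so that CACGT is its other-strand form.
Pgam1: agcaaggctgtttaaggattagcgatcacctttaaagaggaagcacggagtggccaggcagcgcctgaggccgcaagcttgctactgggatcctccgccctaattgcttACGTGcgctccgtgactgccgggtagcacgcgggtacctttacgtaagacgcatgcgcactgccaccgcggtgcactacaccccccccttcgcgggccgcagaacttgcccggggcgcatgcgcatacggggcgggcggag
Ldha: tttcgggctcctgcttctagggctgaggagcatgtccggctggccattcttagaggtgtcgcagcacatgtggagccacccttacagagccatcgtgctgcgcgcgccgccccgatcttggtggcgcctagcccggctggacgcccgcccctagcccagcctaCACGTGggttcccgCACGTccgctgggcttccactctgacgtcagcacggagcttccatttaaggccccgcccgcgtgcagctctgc
Slc2a1: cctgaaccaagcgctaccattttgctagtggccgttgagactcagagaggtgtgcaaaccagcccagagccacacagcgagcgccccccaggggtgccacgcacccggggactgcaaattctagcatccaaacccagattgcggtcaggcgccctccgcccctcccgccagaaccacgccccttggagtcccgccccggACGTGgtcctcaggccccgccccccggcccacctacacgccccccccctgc
Slc16a1: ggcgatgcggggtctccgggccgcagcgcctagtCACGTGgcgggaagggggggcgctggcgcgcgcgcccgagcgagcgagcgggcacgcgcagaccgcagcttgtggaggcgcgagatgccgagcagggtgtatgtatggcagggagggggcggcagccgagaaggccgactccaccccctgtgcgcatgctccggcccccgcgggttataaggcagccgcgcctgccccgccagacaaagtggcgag
Pdk3: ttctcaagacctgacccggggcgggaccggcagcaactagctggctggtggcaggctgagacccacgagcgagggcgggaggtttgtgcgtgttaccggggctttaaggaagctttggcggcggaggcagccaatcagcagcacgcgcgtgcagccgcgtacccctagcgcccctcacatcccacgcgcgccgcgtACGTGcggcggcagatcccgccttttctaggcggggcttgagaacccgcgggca
Pdha1: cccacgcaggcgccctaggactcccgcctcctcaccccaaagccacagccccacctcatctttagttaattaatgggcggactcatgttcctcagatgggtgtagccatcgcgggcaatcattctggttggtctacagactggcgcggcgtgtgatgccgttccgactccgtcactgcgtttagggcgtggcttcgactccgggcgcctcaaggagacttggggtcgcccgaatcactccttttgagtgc
The windows are chr1:250672902-250673151 (plus strand) for Pgam1, chr1:106507842-106508091 (plus strand) for Ldha, chr5:138002272-138002521 (plus strand) for Slc2a1, chr2:194812410-194812659 (plus strand) for Slc16a1, chrX:62547372-62547621 (minus strand) for Pdk3 and chrX:38508908-38509157 (plus strand) for Pdha1. Ldha held 3 matches, Slc16a1 2, and Pgam1, Slc2a1 and Pdk3 1 each, while the Pdha1 window held none. Ldha and Slc16a1 each held 1 CACGTG, which reads as the core on both strands and so counts as 2 of these matches. Among all listed genes, 31 had a window in the RefSeq table, 35 windows in all, and 15 of the 35 (42.9%) held the core against 16.6% of 33469 promoters of the same length. Windows of these genes were also richer in CG pairs (median 17 against 5), and the share was not matched for that. The E box CACGTG, which contains the core, was in 5 windows (14.3% against 5.59%), and the AP-1 letters TGANTCA were in 4 (11.4% against 6.34%). The cyclic AMP response element and the serum response element were each found only in the Ldha window (2.86% of windows against 1.59% and 1.5%), and the MEF2 site only in that of Aldoa (2.86% against 2.96%). Of the genes called as falling at 6 h, Hk1, Pfkm, Slc16a7 and Pdk2 also held the core, so it was not limited to the genes that rose.

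Between 1 and 6 h of KCl in the control arm 13 of 29 genes were called, 8 higher and 5 lower, against 35.5% of all tested genes (15.0% higher, 20.4% lower). The list was that of the 6 h comparison without Hk1 and with Pfkp and Aldoa. With the mean over all probe sets of a gene the calls of Pfkfb2 (log2 -0.10, limma adjusted p = 0.1) and Pdk1 (-0.11, 0.276) were lost. In the main fit these 2 genes were at -0.53 and -0.47. Pfkp, the platelet-type phosphofructokinase, rose by 0.39 on the log2 scale (SE 0.12, limma adjusted p = 0.0153), from 2408, 2705 and 2414 to 3231, 3156 and 3475. It was not called without control 1 h replicate 3 (0.0515) or control 6 h replicate 3 (0.0589), in a range of 0.00558 to 0.0589. Aldoa, the main aldolase, rose by 0.20 (SE 0.05, limma adjusted p = 0.00651), from 10483 to 11578 at 1 h to 12494 to 12853 at 6 h. Slc2a1 rose by 0.58 and Slc16a1 by 0.54, so most of their rise fell after the first hour. Slc16a7 changed by -0.66 here too (limma adjusted p = 0.0286), but was not called without control 1 h replicate 1 (0.1) or 3 (0.0881) or control 6 h replicate 1 (0.0721) or 2 (0.0783), nor with no filter (0.0605), in a range of 0.00393 to 0.1. With the replicate block Gpi and Tpi1, the isomerases of glycolysis, were called higher (0.00347 and 0.00283).

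In the RNAi arm 2 genes were called after 1 h of KCl, 1 higher and 1 lower, against 3.88% of all tested genes (1.23% higher, 2.64% lower). Higher calls were 31.8% of all calls here and 44.2% after quantile normalization. Slc2a3 read 1222, 1560 and 1812 at 0 h and 2406, 3673 and 3869 at 1 h, a 2.15-fold rise (log2 1.10, SE 0.17, limma adjusted p = 0.000938). Every 1 h array lay above every 0 h array. Pfkfb2 fell to 74.6% (log2 -0.42, SE 0.09, limma adjusted p = 0.00983), from 630, 767 and 754 to 545, 541 and 513. The Pfkfb2 call was lost, which left 1 gene called, without RNAi 0 h replicate 2 (0.0587) or 3 (0.0558), without RNAi 1 h replicate 3 (0.0603) and with the mean over probe sets (0.943), the range being 0.00274 to 0.943. With the block Slc16a1 was called higher (0.0333) in addition.

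After 6 h of KCl in the RNAi arm 13 of 29 genes were called, 7 higher and 6 lower, against 40% of all tested genes (14.7% higher, 25.3% lower). Pgam1, Ldha, Slc16a1, Pdk3 and Pdha1 rose in both arms, 5 of 29 where 11.2% of all genes did. Hk1, Pfkm, Pfkfb2, Slc16a7, Pdk1 and Pdk2 fell in both, 6 of 29 where 20.4% of all genes did. The sign of the 6 h change was the same in both arms for 25 of 29 genes (86.2%), and for 82.8% of all genes. Pfkfb2 again fell most, from 630, 767 and 754 to 298, 357 and 331 (log2 -1.12, SE 0.09, limma adjusted p = 1.10e-07). Pdk2 fell to 58.8%, the same percentage as in the control arm, from 598, 665 and 616 to 390, 358 and 356 (log2 -0.77, SE 0.09, limma adjusted p = 3.90e-06). Slc16a1 rose by 0.48 (SE 0.12, limma adjusted p = 0.00404), with 1891, 1861 and 2331 at 0 h and 2597, 2682 and 3198 at 6 h. Slc16a7 read 269, 352 and 324 at 0 h and 132, 163 and 239 at 6 h, a fall to 55.2% (log2 -0.86, SE 0.22, limma adjusted p = 0.00531). Pdha1 rose by 0.48 and Pdk3 by 0.42 (limma adjusted p = 0.000144 and 0.00292). Slc2a3 remained above 0 h, at 1914, 2501 and 2575 (log2 0.61, SE 0.17, limma adjusted p = 0.00886). Mpc2, a subunit of the pyruvate carrier, rose by 0.16 (SE 0.05, limma adjusted p = 0.0333), and this call was lost with quantile normalization (0.0544), without any 1 RNAi 0 h array (0.0521 to 0.0952) and without RNAi 6 h replicate 1 (0.15) or 3 (0.0571), in a range of 0.0128 to 0.15. Hk1 fell by 0.19 (limma adjusted p = 0.0355), but was not called without any 1 RNAi 0 h array (0.0557 to 0.108), without RNAi 6 h replicate 1 (0.0966) or 2 (0.0821), or with the mean over probe sets (0.381), in a range of 0.0152 to 0.381. With the block Tpi1 was called higher (0.0064). The mean over probe sets also ended the calls of Pdk1 (log2 -0.14, limma adjusted p = 0.143, in a range of 3.43e-06 to 0.143) and Pfkm (-0.18, 0.135, in a range of 6.94e-05 to 0.135), and the second probe set of Pdk1 was at 0.28 (limma adjusted p = 0.165). Slc2a1 read 1149, 1089 and 1351 at 6 h against 1297, 1039 and 1174 at 0 h, and these arrays overlapped (log2 0.03, SE 0.13, limma adjusted p = 0.848).

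**Figure D3:**
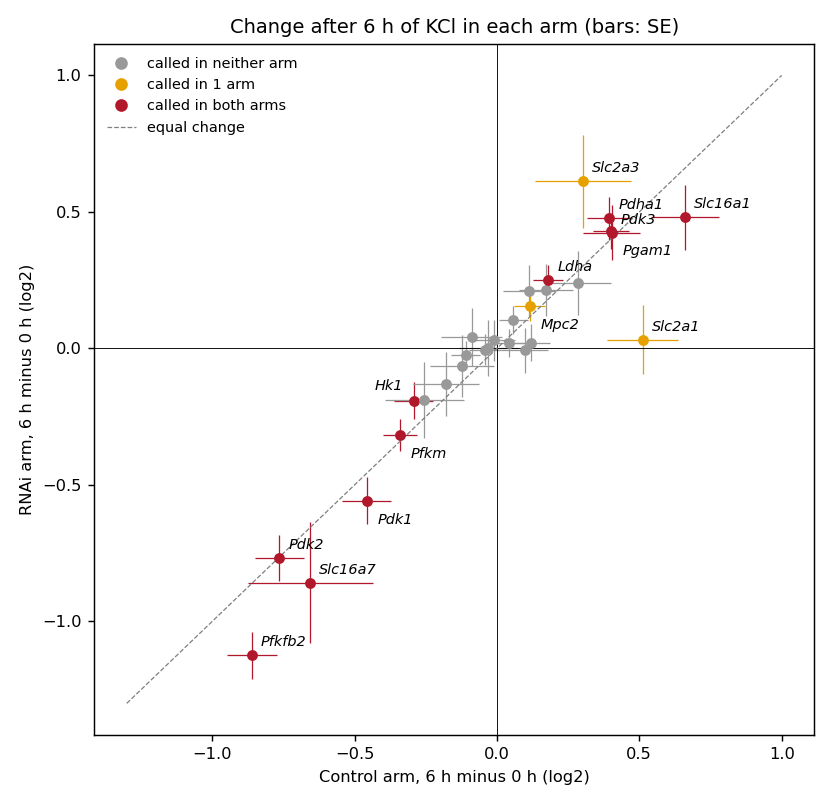
Each point is a tested gene, with its log2 change between 0 and 6 h of KCl in the control arm (horizontal) and in the RNAi arm (vertical), bars of 1 SE and a dashed line of equal change. Most genes lie near the line; Slc2a1 is at 0.51 in the control arm and 0.03 in the RNAi arm.

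No gene of the list was called for a difference between the arms in their response. At 1 h limma called 0 of 29 and 0% of all genes, and 3 genes of the list had an unadjusted p under 0.05, as had 363 of 10934 genes. The largest of these was Slc2a3, whose rise was 0.70 larger on the log2 scale in the RNAi arm (SE 0.24, limma adjusted p = 1). At 6 h limma called 0 of 29 and 0.119% of all genes, and 2 of the list passed without adjustment, as did 901 of 10934 genes. Slc2a1 differed by -0.48 (SE 0.18, limma adjusted p = 0.424), and Pfkfb2 by -0.26 (SE 0.12, limma adjusted p = 0.6). The replicate block also called none of the list at either time. The different responses of Slc2a1 and Slc2a3 in the arms therefore did not pass this test.

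Between the arms at equal times, 8 of 29 genes were called at 0 h, 8 at 1 h and 9 at 6 h, where 14.9%, 17.1% and 17.2% of all tested genes were. At 0 h 3 were higher and 5 lower (8.66% and 6.19% of all genes), at 1 h 4 and 4 (7.98% and 9.12%), and at 6 h 4 and 5 (8.67% and 8.55%). Slc16a7, Pdk1, Pdk3 and Mpc1 were lower in the RNAi arm at all 3 times, 4 of 29 where 3.61% of all genes were. Pfkm, Pfkfb2 and Pfkfb4 were higher at all 3 times, 3 of 29 where 3.80% of all genes were. The 3 comparisons use different arrays but share 1 estimate of spread. Same-numbered replicates also deviated together across groups, so the 3 comparisons are not independent repeats. Over the mean of the 3 times 11 of 29 genes were called, 6 higher and 5 lower, against 37.6% of all genes (20.9% higher, 16.6% lower). The count at 0 h was 4 without control 0 h replicate 2 or RNAi 0 h replicate 3, and 5 without control 0 h replicate 3, without RNAi 0 h replicate 1 or with the mean over probe sets.

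Mpc1, an obligate subunit of the mitochondrial pyruvate carrier, had the smallest adjusted p of the list at each time. Its signals were 8038, 7166 and 7474 in the control arm at 0 h and 4687, 4990 and 4378 in the RNAi arm. At 1 h they were 8073, 6958 and 6771 against 4372, 4577 and 4262, and at 6 h 7459, 7168 and 7882 against 4999, 4788 and 4550. All 9 control arrays lay above all 9 RNAi arrays, and between 0 and 6 h of KCl it differed by -0.01 in the control arm and 0.03 in the RNAi arm, not called. The RNAi arm stood at 62%, 60.8% and 63.7% of control (log2 -0.69, -0.72 and -0.65, SE 0.07 each, limma adjusted p = 1.82e-05, 1.20e-05 and 3.51e-05), and it was called in all 23 alternatives at each time. Mpc2, its partner, differed by no more than 0.05 at any time and was not called. It read 6875 to 7112 in the control arm and 6899 to 7125 in the RNAi arm at 0 h.

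Slc16a7 stood at 59.5%, 45.3% and 51.7% of control (log2 -0.75, -1.14 and -0.95, SE 0.22 each, limma adjusted p = 0.0312, 0.00211 and 0.00755). At 1 h the RNAi arrays read 190, 243 and 294 against 597, 429 and 572. No array of the arms overlapped at any of the 3 times, although at 0 h the highest RNAi array (352) was near the lowest control array (390). The 0 h call was lost without control 0 h replicate 2 (0.129) or 3 (0.114), without RNAi 0 h replicate 1 (0.104) or 3 (0.0697) and with no filter (0.0670), in a range of 0.00331 to 0.129. Slc2a3 was lower at 0 h alone (log2 -0.65, SE 0.17, limma adjusted p = 0.0173), at 1222, 1560 and 1812 against 2158, 2575 and 2391, and this call was lost without RNAi 0 h replicate 1 (0.0758) or control 0 h replicate 2 (0.0702), in a range of 0.00031 to 0.0758. Its difference was 0.06 at 1 h and -0.34 at 6 h, and with the block the latter was called (0.0236). Slc2a1 was lower at 6 h (log2 -0.39, SE 0.13, limma adjusted p = 0.0419), although the arms overlapped, with 1252, 1613 and 1889 in control arrays and 1149, 1089 and 1351 in RNAi arrays. It was called in 12 of 23 alternatives (0.00426 to 0.201) and lost without control 6 h replicate 3 (0.201) or 2 (0.120), without RNAi 6 h replicate 2 (0.136) or 1 (0.126), without control 0 h replicate 2 or 3, control 1 h replicate 2, RNAi 0 h replicate 3 or RNAi 1 h replicate 3 (0.0508 to 0.052), with no filter (0.0735) and with quantile normalization (0.0605). The arms' endothelial and fibroblast sums at 6 h were 3764 to 4118 in control and 2796 to 3291 in RNAi arrays, and their part in this difference was not tested.

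The kinase transcripts again differed by isoform. Pdk3 stood at 76.4%, 77.3% and 77.5% of control (log2 -0.39, -0.37 and -0.37, SE 0.10, limma adjusted p = 0.0153, 0.0178 and 0.0185). Its 0 h signals were 737, 679 and 634 against 1032, 833 and 829, and its second probe set gave -0.56 at 0 h (limma adjusted p = 0.00953). Leaving out control 0 h replicate 1 (0.0679) or RNAi 0 h replicate 3 (0.0705) ended the 0 h call, control 1 h replicate 1 (0.0927) or RNAi 1 h replicate 3 (0.0747) the 1 h call, and control 6 h replicate 1 (0.0650) or 3 (0.0593) or RNAi 6 h replicate 2 (0.0677) or 3 (0.0573) the 6 h call. Over all alternatives the adjusted p was 0.000286 to 0.0705 at 0 h, 0.00038 to 0.0927 at 1 h and 0.000414 to 0.0677 at 6 h. Pdk1 stood at 82.9%, 75.9% and 77.3% (limma adjusted p = 0.0447, 0.00464 and 0.00749), with 1232, 1310 and 1400 against 1469, 1678 and 1609 at 0 h. Its 0 h call held in 11 of 23 alternatives (0.00542 to 0.169). Of the arrays of this comparison, control 0 h replicate 1 and RNAi 0 h replicate 3 could be left out without losing it, while leaving out control 0 h replicate 2 or 3 or RNAi 0 h replicate 1 or 2 gave 0.101 to 0.163. It was also lost without control 1 h replicate 3, control 6 h replicate 3, RNAi 1 h replicate 2 or any 1 RNAi 6 h array (0.0503 to 0.0579). The mean over all probe sets (log2 -0.16, limma adjusted p = 0.169) and no brightness filter (0.0599) ended this Pdk1 call as well. Pdk2 was higher at 1 h (log2 0.45, SE 0.09, limma adjusted p = 0.00184), with 646, 559 and 686 against 419, 438 and 526. Its differences of 0.26 at 0 h and 0.26 at 6 h were called with the block (0.0259 and 0.0255). Among the kinases, Pdk2 was thus the only one called higher in the RNAi arm, and Pdk1 and Pdk3 were lower.

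Of the phosphofructokinase genes Pfkm was higher in the RNAi arm, and of the PFKFB genes Pfkfb2 and Pfkfb4 were at each time and Pfkfb3 at 6 h. Pfkp differed by -0.02, -0.15 and -0.06 at 0, 1 and 6 h and Pfkl by -0.17, 0.25 and -0.10, none of them called. Pfkfb2 stood at 163%, 152% and 135% of control (log2 0.70, 0.60 and 0.44, SE 0.09, limma adjusted p = 5.84e-05, 0.000201 and 0.0028). At 0 h its arrays read 630, 767 and 754 against 468, 440 and 411. Another probe set of Pfkfb2 was lower at 0 h (log2 -0.27, limma adjusted p = 0.0458), and with the mean over probe sets the difference was 0.08 at 0 h (adjusted p = 0.283) and 0.09 at 6 h (0.191), in ranges of 1.89e-05 to 0.283 and 0.000976 to 0.191. Pfkfb4, another enzyme of this family, stood at 133%, 142% and 139% (log2 0.41, 0.50 and 0.47, SE 0.11, limma adjusted p = 0.0208, 0.00592 and 0.00911), with 342, 409 and 407 against 275, 325 and 269 at 0 h. Its 0 h call was lost without control 0 h replicate 1 (0.0644) or 3 (0.0831) or RNAi 0 h replicate 2 (0.0777) or 3 (0.0807), in a range of 0.000327 to 0.0831. Pfkfb3 was higher at 6 h (log2 0.37, SE 0.09, limma adjusted p = 0.0132), with 1632, 1707 and 1727 against 1153, 1294 and 1500, but not without control 6 h replicate 1 (0.0615) or with the mean over probe sets (0.5), in a range of 0.00434 to 0.5. Pfkm was higher by 0.21, 0.25 and 0.23 (SE 0.06, limma adjusted p = 0.0272, 0.00809 and 0.0144), with 2940, 3072 and 3123 against 2607, 2556 and 2745 at 0 h. Its mean over probe sets was not called at any of the 3 times (0.126 to 0.442), nor was it called at 0 h without control replicate 1 (0.0675) or 2 (0.105) or RNAi replicate 2 (0.0752) or 3 (0.0944), nor at 6 h without control replicate 2 (0.0583) or RNAi replicate 1 (0.051) or 3 (0.063). Over all alternatives its adjusted p was 0.00564 to 0.442, 0.00138 to 0.17 and 0.0026 to 0.126 at the 3 times. Gapdh was higher by 0.11 in the mean of the 3 times (SE 0.03, limma adjusted p = 0.00721), a small difference in a gene often used as a reference. Its 3′ to 5′ signal ratio had group means of 1.20 to 1.26. The corresponding control probe sets of hexokinase gave mean ratios of 5.05, 4.44 and 4.01 in control arrays at 0, 1 and 6 h. The RNAi arrays gave 4.06, 4.10 and 3.96, with the 5′ probe set dim (mean signal 53.7). The Hk1 signal was also lower at 6 h than at 0 h, and the part of RNA ends in that change was not tested. With the replicate block more genes were called: Hk1 lower (0.0385) and Pfkfb3 higher (0.0306) at 0 h, Gpi (0.00868), Aldoa (0.0397) and Gapdh (0.021) higher at 1 h, Slc16a1 lower at 6 h (0.0448), and in the mean Gpi (0.00423) and Aldoa (0.0381) higher and Eno2 lower (0.0396).

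**Figure D4:**
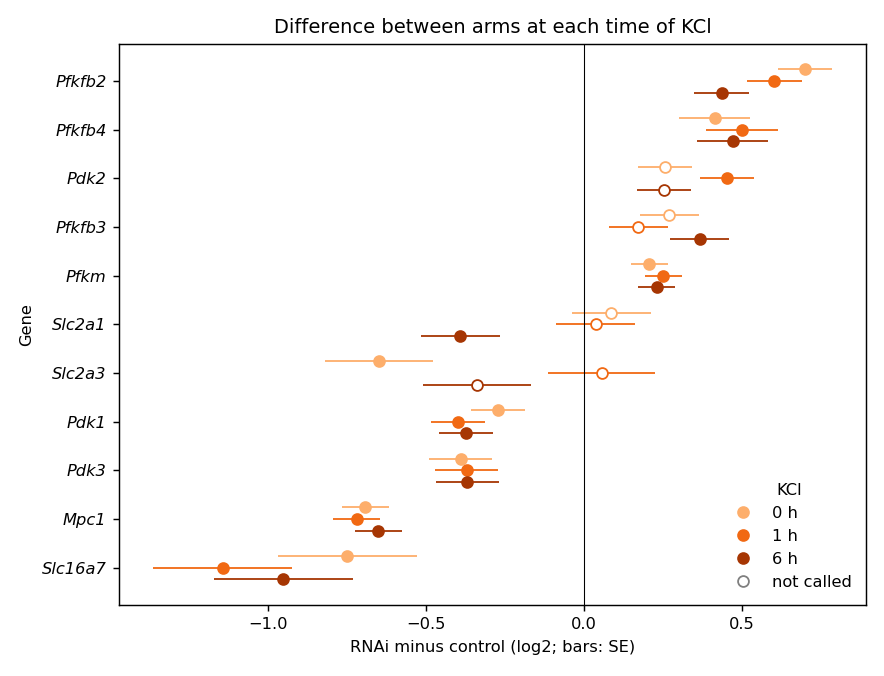
Log2 difference between the RNAi and control arms at 0, 1 and 6 h of KCl for 11 genes, with bars of 1 SE; filled points were called and open ones were not. Mpc1, Slc16a7, Pdk3 and Pdk1 lie left of 0 at each time, Pfkfb2, Pfkfb4 and Pfkm right of it.

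Markers of other cells also differed between the arms. In the mean of the 3 times, where 20.9% of all tested genes were higher and 16.6% lower, 5 of 10 tested astrocyte markers were higher in the RNAi arm, with Gja1 at 0.34 and Aldoc at 0.30 on the log2 scale, and their summed signal was 43740 to 58381 in control arrays and 52627 to 63819 in RNAi arrays. Of 7 tested endothelial and fibroblast markers 4 were lower, with Dcn at -0.86 and Lum at -0.83, and their sums did not overlap (3382 to 4279 against 2081 to 3291). Of 13 neuronal markers 1 (7.69%) was higher (Snap25, 0.15) and 4 (30.8%) were lower (Nefm, -1.04). The share called in either direction was near that of all genes, but the share lower was above theirs (16.6%). Limma called 0 of 6 oligodendrocyte and 0 of 7 microglial markers, with 1 and 0 at an unadjusted p under 0.05. The part of these cells in the differences of the glycolytic and pyruvate genes was not tested.

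Neighbouring pathways are given by lists of their genes, to be read against all tested genes, of which 16.1% rose and 25.5% fell in the control arm at 6 h and 14.7% and 25.3% in the RNAi arm. Of 22 tested genes of the citric acid cycle and its shuttles 11 fell after 6 h of KCl in the control arm (50%) and none rose (median log2 -0.15, against -0.02 over all tested genes), with Suclg1 at -0.72, Aco1 at -0.64 and Ogdh at -0.58. In the RNAi arm 10 of the 22 fell and none rose. The hypoxia list mixes parts of the hypoxia-inducible factor pathway itself, such as Hif1a and Vhl, with genes known to answer to hypoxia. Of its 18 tested genes 9 rose (50%) and 1 fell in the control arm (median 0.16). Mxi1 at 1.01 and the collagen prolyl hydroxylase P4ha1 at 1.12 led the rises, and Ndrg1 fell (-0.89). In the RNAi arm 6 rose and 1 fell. Partners of pyruvate dehydrogenase included Dld, its dehydrogenase subunit, which rose by 0.89 in the control arm and 0.68 in the RNAi arm, and the phosphatase Pdp2, which rose by 0.32 in the control arm. Pck2, which makes phosphoenolpyruvate in mitochondria, fell by 0.62, so that 3 of 9 in this list rose (33.3%) and 1 fell (11.1%). Other sugar and monocarboxylate transporters had 3 falls among 8, or 37.5% (Slc16a6, -1.59, Slc2a6, -0.79, and Slc2a13, -0.63) and no rise. The other glycolytic isozymes had 1 rise, Bpgm (0.17), and 1 fall, the ADP-dependent glucokinase Adpgk (-0.45), among 5. Among 15 regulators of nutrient sensing 4 rose (26.7%) and 6 fell (40%), with Arrdc4 at -2.72, Txnip at -2.64 and Mlx at 0.45. The fall of Arrdc4 was 1.08 smaller on the log2 scale in the RNAi arm (limma interaction, adjusted p = 0.0361). This call held in 7 of 23 alternatives (0.00811 to 0.106) and was lost when any 1 array other than control 1 h replicate 1 and the RNAi 6 h arrays was left out. The fall of Txnip was 0.84 smaller but not called (limma adjusted p = 0.506).

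**Figure D5:**
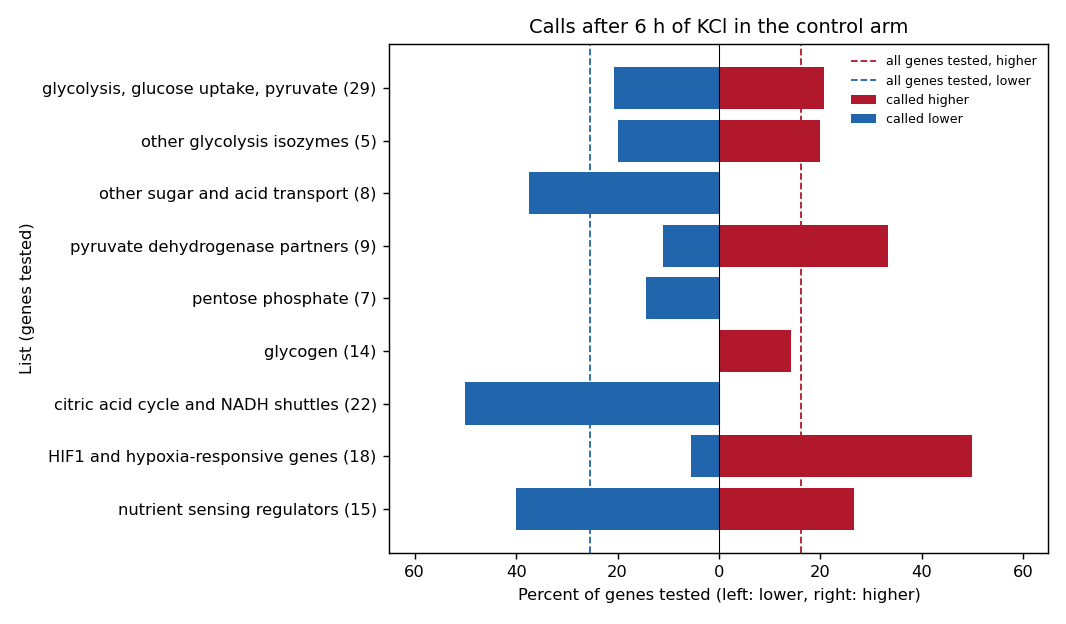
Percent of tested genes in each list called lower (left) and higher (right) after 6 h of KCl in the control arm, with the number tested in brackets; dashed lines give the share over all tested genes. The citric acid cycle list reaches 50% lower with no gene higher, and the hypoxia list 50% higher.

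Called in none of the comparisons were 9 genes. Gpi, Tpi1, Pgk1, Eno1 and Eno2 of the glycolytic chain, with Pfkl, Ldhb, Slc16a3 and Pdhb, had log2 differences between -0.34 and 0.41 over all 11 comparisons, both ends being those of Pfkl. Tpi1 came nearest to the threshold (lowest limma adjusted p = 0.0546), and Pdhb, the other subunit of the enzyme that Pdha1 serves, stayed within -0.04 and 0.06. Hk2 and Pdk4 were below the brightness filter on all 18 arrays, with signals of 73.9 to 99.2 and 101 to 138, and were not tested. Pkm was on a probe set shared with another gene symbol and Dlat on none listed with a single symbol, so neither is described here.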

How the data were processed

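The deposited table holds 1 linear intensity per probe set and array for 31099 probe sets on 18 arrays. Total RNA was extracted and labelled as biotinylated cRNA, per the labels' protocols, while the authors' probe summary and normalization of these intensities were not given in the sources used here. Gene symbols came from the platform annotation, in which 20832 probe sets had 1 symbol, 436 had several and 9831 were not listed. Intensities under the table's 20th percentile (72.6) were raised to it, which understates the changes of dim genes, and log2 was taken. Each symbol was represented by its probe set with the highest mean (14 of the listed genes had several), and was tested where it exceeded the 40th percentile of its array on at least 3 arrays. All 18 arrays were fitted with 6 group means (12 residual degrees of freedom) by lmFit and eBayes in limma 3.58.1, R 4.3.3, for 11 comparisons, with p-values adjusted over the 10934 genes tested and a threshold of 0.05. The fit was tested on simulated arrays drawn independently of each other. That test therefore does not cover arrays that deviate together, as same-numbered replicates did here. Precision is limited by having 3 arrays in each group.

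Same-numbered replicates deviated together in every pair of groups (correlation 0.168 to 0.741 over 45 pairs, against -0.625 to 0.425 for other numbers), so the number was used as a block in an alternative fit. The pairing comes from this check, as the labels do not say what a number marks. Other alternatives were no brightness filter, log2(intensity + 16) without the floor, quantile normalization, the mean over all probe sets of a gene, and leaving out each array. The genes and lists were chosen with earlier results of these data known. Every listed gene is accounted for, and from each other list up to 3 called genes with the smallest adjusted p at 6 h in the control arm and up to 2 for the mean difference between arms are named, besides Mef2a, Mef2c, Mef2d, Fos, Txnip and Arrdc4. Kdr and the marker examples follow the same rule. Promoters are from RefSeq, GRCr8. Figures were drawn with Python 3.11.15 and matplotlib 3.10.9.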

Additional observations from a re-analysis of the deposited data

Results flagged for a closer look

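Arrdc4, a glucose-responsive arrestin-family gene, fell after 6 h of KCl in both arms, with log2 changes of -2.72 in the control arm and -1.64 in the RNAi arm. It stands here because the test of the difference itself called it: the response was 1.08 higher in the RNAi arm (SE 0.19, limma adjusted p = 0.0361). Over 23 alternatives the difference was 0.87 to 1.19 and the adjusted p 0.00811 to 0.106, with 7 calls.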

How the results depend on the processing

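Over 9 comparisons, the mean difference between the arms included, 76 calls of single genes were made, and none reversed under any alternative. All 76 were kept with the replicate block and with log2(intensity + 16), 74 with quantile normalization, 71 with no brightness filter and 60 with the mean over all probe sets of a gene. The last averages probe sets that differ, and the losses were in Hk1, Pfkm, Pfkfb2, Pfkfb3 and Pdk1. No alternative used the other probe sets alone, and some of these had the opposite sign, as given above for Pfkfb2 and Pdk1. The pairing by replicate number with the block ended no call and added calls, so that 2 genes were called after 1 h of KCl in the control arm in place of 0. There no filter and quantile normalization each called 1. With the mean over probe sets 1 gene in place of 2 was called at 1 h in the RNAi arm, and 5 in place of 8 between the arms at 0 h. The cause was not tested.

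Leaving out 1 array kept 1299 of 1368 calls, and 58 of the 76 held in every such fit. The counts ranged from 0 to 1 at 1 h and 10 to 13 at 6 h in the control arm, from 12 to 14 between 1 and 6 h, and from 1 to 3 and 11 to 13 at 1 and 6 h in the RNAi arm. Between the arms they were 4 to 9, 7 to 12 and 7 to 10 at 0, 1 and 6 h and 11 to 13 in the mean. The tests of a difference in response called 0 throughout. Of the called genes Slc16a7 had the lowest signal, 132 on an RNAi 6 h array, where the floor was 72.6.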

Other observations

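Single genes of glycogen handling, of the pentose phosphate pathway and of nutrient sensing were called between the arms in the mean of the 3 times, where 37.6% of all tested genes were (20.9% higher, 16.6% lower). Of 14 tested glycogen genes 5 (35.7%) were lower in the RNAi arm and none higher. The share called in either direction was near that of all genes (37.6%), but the share lower was above theirs (16.6%). They included Gyg1, the protein on which a glycogen particle starts (log2 -0.41, SE 0.04, limma adjusted p = 3.24e-07), and Ugp2, which makes the UDP-glucose that extends it (-0.42, SE 0.05, limma adjusted p = 3.66e-06). Of 7 pentose phosphate genes 2 (28.6%) were higher, Taldo1 (0.26) and Rpia (0.30), and 1 (14.3%) was lower. Among 15 nutrient sensing regulators 6 (40%) were higher and 3 (20%) lower, with the orphan nuclear receptor Esrrg at -1.44 (SE 0.08, limma adjusted p = 4.35e-09) and Prkag2, a subunit of the AMP-activated kinase, at -0.73 (SE 0.05, limma adjusted p = 1.33e-08). Esrrg differed by -1.24, -1.74 and -1.35 at 0, 1 and 6 h.

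Near the pyruvate dehydrogenase complex, the phosphatase Pdp1, which reverses the action of the PDK kinases, was lower in the RNAi arm (mean log2 -0.42, limma adjusted p = 2.81e-05), as was Dld (-0.38, limma adjusted p = 0.000131). In the citric acid cycle list 7 of 22 (31.8%) were higher and 4 (18.2%) lower, with Ogdh at 0.30 and Aco1 at -0.36. In the hypoxia list 2 of 18 (11.1%) were higher and 6 (33.3%) lower, with Vhl, a part of the pathway itself, at 0.42 and Bnip3l at -0.46. Slc2a13 and Slc2a8 of the other transporters were lower, at -0.50 and -0.31. After 6 h of KCl in the control arm, where 16.1% of all genes rose and 25.5% fell, the glycogen list had 2 rises of 14, Gsk3b (0.87) and Pgm2 (0.39), and the pentose phosphate list 1 fall of 7, Pgls (-0.20).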
